A study of Mus musculus with 12 samples.

Results

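6-Shogaol was compared with 6-gingerol at the same dose, 10 µM, in LPS-stimulated BV2 cells, an immortalized mouse microglial line. The comparison used 4 of the 12 libraries of the series: 2 from cells given 10 µM 6-shogaol and LPS, and 2 from cells given 10 µM 6-gingerol and LPS. These libraries were chosen by their labels alone, and all 12705 genes that passed a filter on low counts were tested. Per the labels, cells in both groups were placed in serum-free medium 24 h after seeding, kept there for at least 4 h, given the compound, and given 100 ng/mL LPS 1 h later. The time from LPS to harvest is not stated. The other 8 libraries, 2 per group, were LPS with 30 µM 6-shogaol, LPS with 30 µM 6-gingerol, LPS alone, and untreated cells. The 30 µM libraries gave the same pair of compounds at a matched higher dose. LPS alone and untreated cells classed genes by their LPS response. That class and the 10 µM fold changes share no library, but all 12 libraries entered 1 fit and its estimate of spread, so 10 µM p-values also rest on the other 8. BV2 is 1 transformed line, and no label says whether replicates were separate cultures, so p-values measure only the spread between these libraries.

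Gingerols are phenols of fresh ginger, and shogaols form from them by loss of water when ginger is dried or heated. The compounds of this pair differ in that step: 6-shogaol has an α,β-unsaturated ketone where 6-gingerol has a β-hydroxy ketone. LPS is sensed by TLR4 on microglia. The MyD88 arm of TLR4 signalling activates NF-kB and the transcription of cytokines such as Il6 and Tnf, while the TRIF arm activates IRF3 and interferon-β, whose receptor then drives interferon-stimulated genes. Unsaturated ketones of this kind can react with thiols, and NRF2, released when its thiol-rich partner KEAP1 is modified, drives antioxidant genes.

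The 4 libraries held 16534960 and 19876803 expected counts with 6-shogaol, and 19144016 and 18680256 with 6-gingerol. Their mean fragment lengths were 247 and 248 bases with 6-shogaol, and 252 and 231 bases with 6-gingerol. Replicate 1 of 6-gingerol stood apart from the other 11 libraries on the fourth principal component (7.3% of variance). The third (10.2%) had the 6-shogaol libraries at -14.2 and -15.9 and the 6-gingerol libraries at 0.9 and 9.4. It also split the replicates of untreated cells (19.8 and -15.7), 30 µM 6-gingerol (-13.9 and 8.5) and 30 µM 6-shogaol (-6.1 and 12.3), but not those of LPS alone (5.4 and 9.6). The part of this variation in the 10 µM contrast was not tested. Results with 1 compared library left out are given below, mostly as ranges over the libraries. Macrophage markers were present (Adgre1 661, Cd68 739, Csf1r 529 and Itgam 205 CPM on average over the 4 libraries, where CPM is a count scaled to a common library size). Markers of homeostatic brain microglia were low or absent (Tmem119 4.29, P2ry12 0.41 and Sall1 0 CPM), as was Cx3cr1 (0.62 CPM). Of 9 neuron markers none passed the filter.

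At 10 µM the compounds differed in a small set of genes, in the edgeR fit of all 12 libraries mostly transcripts that LPS induces. With 6-shogaol, 71 genes were lower than with 6-gingerol and 10 were higher, 0.638% of genes tested in all (0.559% lower, 0.0787% higher; edgeR quasi-likelihood F test, adjusted p under 0.05). The genes lower with 6-shogaol included the cytokine Il6, the chemokines Ccl5 and Cxcl10, complement factor B and interferon-stimulated genes such as Isg15. Log2 fold changes, always 6-shogaol over 6-gingerol, ran from -3.93 to -0.43 among the lower genes (median -0.87) and from 0.55 to 1.01 among the higher ones (median 0.64). All 81 had libraries that did not overlap between compounds, as did 49.9% of all genes tested (26.5% with 6-shogaol below 6-gingerol and 23.4% above). The -3.93 belongs to the pseudogene Gm3650, at 0.35 and 0.00 CPM with 6-shogaol and 3.28 and 1.81 CPM with 6-gingerol. Leaving out 1 of the 4 libraries gave 16 to 49 calls, and DESeq2 gave 173. Fitting the 4 libraries alone gave 170 calls, and leaving out the untreated libraries 257. Of the calls, 23.7% were higher by DESeq2, 27.6% with the 4 libraries alone and 31.9% without untreated libraries, against 12.3% of the 81. LPS-induced genes called lower made up 70, 67 and 76 of these sets, in that order, a minority of each, against 55 of the 81. Some of the 81 genes were called in every fit that left out 1 of the 4 libraries. They were Il6, Cfb, Cxcl10, Isg15, Il1rn, Traf1, Oasl1, Rsad2, Ccl5, Tnf, Marco, Oasl2, Dcbld2 and Gm13571. Every other gene named here as lower or higher lost its call in at least 1 of these leave-out fits and kept its direction. In bulk RNA, fewer responding cells and less RNA per cell cannot be told apart.

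For most other genes the data bounded the difference. The 95% interval of the fold change lay inside 1.5-fold in either direction for 8273 genes (65.1%), and the median half-width of an interval was 0.29 on the log2 scale. The median log2 fold change over all genes was -0.01. Scaling by library totals moved it by 0.11, to 0.11, and changed the split of calls to 48 lower and 21 higher.

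**Figure D1:**
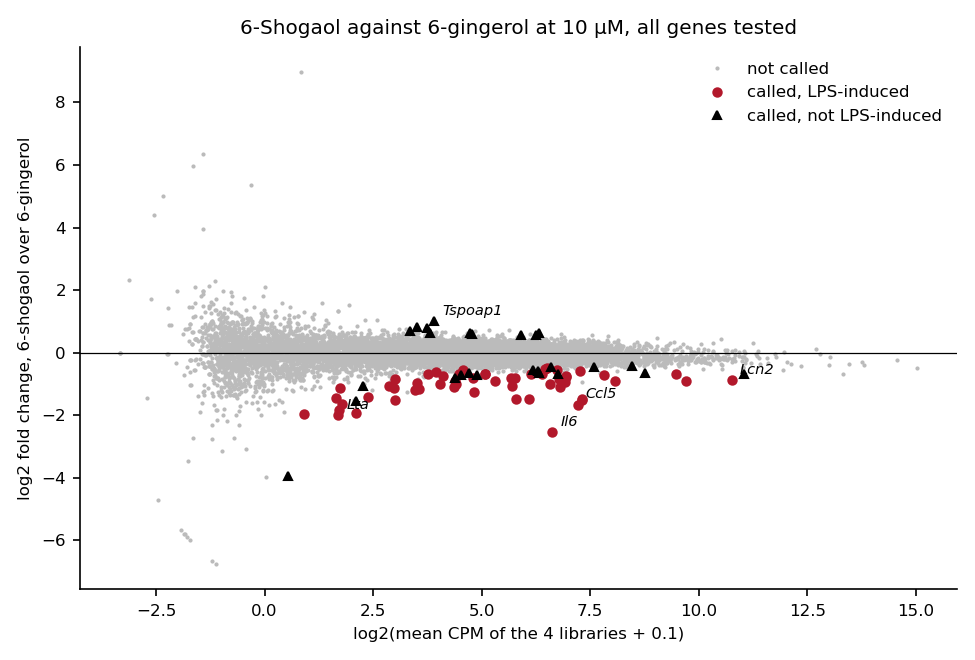
Log2 fold change of 6-shogaol over 6-gingerol at 10 µM against log2 of the mean CPM of the 4 libraries plus 0.1, for 12705 genes. Filled symbols are the 81 genes called, circles for LPS-induced genes and triangles for others; 71 lie below 0 and 10 above.

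Cytokines and chemokines, the secreted messengers of the LPS response, held Il6, the most negative log2 fold change of the called genes named at 5 CPM or more. Il6, which encodes interleukin-6 (ENSMUSG00000025746, GRCm38 chr5:30013114-30019981), stood at 32.9 and 25.5 CPM with 6-shogaol, against 174 and 163 CPM with 6-gingerol. Its level with 6-shogaol was thus 82.7% lower by the fitted fold (log2 fold change -2.53, SE 0.16, 95% interval -2.88 to -2.18, edgeR adjusted p = 8.02e-07). Ccl5, a chemokine for T cells and monocytes (chr11:83525778-83530518), was at 73.0 and 69.5 CPM with 6-shogaol and 204 and 245 CPM with 6-gingerol (log2 -1.66, SE 0.18, edgeR adjusted p = 0.000439). Every 6-shogaol library lay far below every 6-gingerol library for both genes.

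Cxcl10, an interferon-inducible chemokine that acts on CXCR3 (ENSMUSG00000034855, chr5:92346638-92348889), had nearly equal replicates, 83.2 and 82.1 CPM with 6-shogaol, against 221 and 250 CPM with 6-gingerol (log2 -1.51, SE 0.11, edgeR adjusted p = 3.82e-06). The monocyte chemokine Ccl2 was at 32.9 and 34.7 CPM with 6-shogaol and 74.7 and 66.7 CPM with 6-gingerol (log2 -1.06, SE 0.16, edgeR adjusted p = 0.00497). The neutrophil chemokine Cxcl2 was closer between compounds, at 41.1 and 38.5 CPM with 6-shogaol and 72.7 and 65.4 CPM with 6-gingerol (log2 -0.80). These groups did not overlap either. Tnf, the early cytokine of the NF-kB response (ENSMUSG00000024401, chr17:35199381-35202007), differed less than Il6: 89.2 and 96.9 CPM with 6-shogaol, against 157 and 152 CPM with 6-gingerol, 39.9% lower (log2 -0.73, SE 0.09, edgeR adjusted p = 0.000632). The lower transcripts were not all pro-inflammatory. Il1rn, the antagonist of the interleukin-1 receptor, was at 30.0 and 28.2 CPM with 6-shogaol and 84.0 and 78.2 CPM with 6-gingerol (log2 -1.48, SE 0.14, edgeR adjusted p = 5.93e-05).

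In all, 10 of 22 measured cytokines and chemokines were lower with 6-shogaol and 0 were higher, with a list median of -0.75 against -0.01 for all genes (5 to 9 lower with 1 compared library left out, 12 lower and 0 higher by DESeq2). At an unadjusted p under 0.05, edgeR had 15 lower and 0 higher. Over all 12705 genes tested it had 1030 lower and 827 higher (14.6% together), the background for every unadjusted count below. The other lower members were Ccl4, Ccl7 and Lta, the last at 1.41 and 1.11 CPM with 6-shogaol and 4.78 and 5.20 CPM with 6-gingerol. Il1b was near the detection limit, at 0.53 and 0.97 CPM with 6-shogaol and 0.78 and 0.99 CPM with 6-gingerol, with an interval from -1.19 to 0.76 that bounds little. Csf3 was similarly imprecise (interval -1.30 to 0.32).

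**Figure D2:**
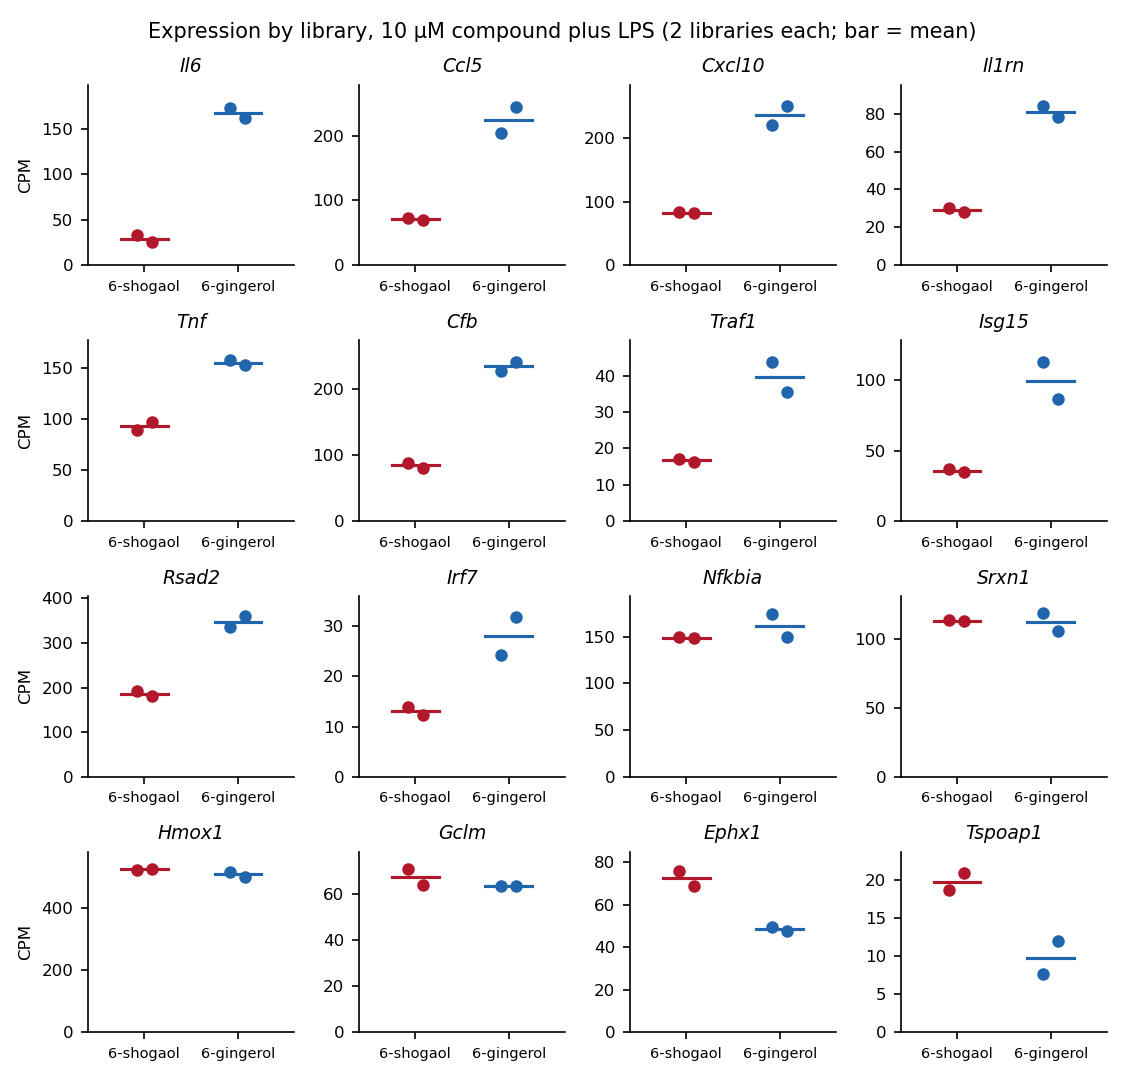
CPM of 16 genes in each library with 10 µM 6-shogaol (left) and 10 µM 6-gingerol (right); points are libraries, bars the mean of 2, and axes start at 0. Cytokine, effector and interferon-stimulated genes lie lower with 6-shogaol, Ephx1 and Tspoap1 higher, and Srxn1, Hmox1 and Gclm nearly level.

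Inflammatory effectors were lower in 7 of 28 cases and higher in 0, with a median of -0.49 (2 to 4 lower with 1 compared library left out, 9 lower and 0 higher by DESeq2). At an unadjusted p under 0.05, edgeR had 20 lower and 0 higher. Cfb, complement factor B of the alternative pathway (ENSMUSG00000090231, chr17:34856374-34862518), had the lowest p of this list. It was at 88.1 and 80.5 CPM with 6-shogaol, against 227 and 241 CPM with 6-gingerol (log2 -1.47, SE 0.09, edgeR adjusted p = 8.02e-07). The scavenger receptor Marco was at 170 and 173 CPM with 6-shogaol and 280 and 281 CPM with 6-gingerol (log2 -0.71, SE 0.09). Ptgs2, cyclooxygenase-2, was at 52.8 and 55.0 CPM with 6-shogaol and 89.1 and 84.2 CPM with 6-gingerol (log2 -0.68, SE 0.10). The groups did not overlap for any of the 3.

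Other classical effectors did not pass the test. Nos2, the inducible nitric oxide synthase, was at 116 and 147 CPM with 6-shogaol and 178 and 186 CPM with 6-gingerol (log2 -0.47, 95% interval -0.88 to -0.05, edgeR adjusted p = 0.291). Acod1, which makes itaconate, had a log2 fold change of -0.51 (edgeR adjusted p = 0.0669), and the acute-phase gene Saa3 -0.68 (edgeR adjusted p = 0.0613). Their libraries did not overlap, but so much separation was common over all genes.

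The NF-kB pathway list, its subunits, adaptors and feedback inhibitors, had a median near 0, at -0.04 (0.07 with library totals, the opposite sign). Of its 28 members 2 were lower and 0 were higher, by edgeR and by DESeq2. At an unadjusted p under 0.05, edgeR had 6 lower and 5 higher, a larger share than the 14.6% of all genes tested. Intervals of 21 members lay within 1.5-fold. The lower members were Traf1, a TNF receptor adaptor at 17.2 and 16.4 CPM with 6-shogaol and 43.9 and 35.6 CPM with 6-gingerol (log2 -1.24, edgeR adjusted p = 0.000138), and the co-stimulatory receptor Cd40 (log2 -0.67). Of the feedback inhibitors, Nfkbia and Tnfaip3 were close between compounds. Nfkbia, which encodes IκBα, was at 150 and 148 CPM with 6-shogaol and 175 and 149 CPM with 6-gingerol, with an interval from -0.32 to 0.08. Tnfaip3, which encodes A20, had an interval from -0.34 to 0.06, so a difference as large as that of Tnf lay outside both intervals. Among 21 TLR4 receptor and signalling genes, 20 had intervals within 1.5-fold, and Cd14, the LPS co-receptor, was the 1 called: 84.8 and 82.4 CPM with 6-shogaol, against 150 and 117 CPM with 6-gingerol (log2 -0.67, edgeR adjusted p = 0.0152).

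Interferon-stimulated genes formed the other large group. Of 42 measured, 15 were lower with 6-shogaol and 0 were higher, with a median of -0.63, and 41 had a negative log2 fold change (37 with library totals). With 1 compared library left out 5 to 11 were lower, by DESeq2 17 were lower and 0 higher, and at an unadjusted p under 0.05 edgeR had 31 lower and 0 higher. Isg15, a ubiquitin-like modifier (ENSMUSG00000035692, chr4:156199424-156200818), was at 37.0 and 34.6 CPM with 6-shogaol, against 113 and 86.3 CPM with 6-gingerol (log2 -1.48, SE 0.13, edgeR adjusted p = 2.74e-05). Rsad2, the antiviral enzyme viperin, was at 192 and 181 CPM with 6-shogaol and 336 and 360 CPM with 6-gingerol (log2 -0.90, SE 0.09). Oasl1, a member of the oligoadenylate synthetase-like family, was at 62.3 and 63.9 CPM with 6-shogaol and 132 and 121 CPM with 6-gingerol (log2 -1.00, SE 0.10). In each of these genes the 6-shogaol libraries sat close together and well below the 6-gingerol libraries.

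Irf7, the transcription factor that amplifies interferon production, was at 13.8 and 12.3 CPM with 6-shogaol and 24.3 and 31.8 CPM with 6-gingerol (log2 -1.11, SE 0.19, edgeR adjusted p = 0.0106). Ifit1, which binds RNA with incompletely methylated caps, was at 6.80 and 6.53 CPM with 6-shogaol and 13.7 and 16.9 CPM with 6-gingerol (log2 -1.20, edgeR adjusted p = 0.00313). Less abundant members were lower as well: Rtp4 by a log2 fold change of -1.93, Xaf1 of -1.65 and Zbp1, a sensor of Z-form nucleic acid, of -1.42. Of 9 guanylate-binding and immunity-related GTPases, Gbp2 (log2 -1.17) and Gbp3 (-1.12) were lower. Reads of Gbp, Oas, Ifi200 and Phf11 paralogs can be split between near-identical copies, so values of single members are less certain. The 18 MHC class I and immunoproteasome genes had no call by edgeR or DESeq2 and a median of -0.13 (-0.02 with library totals), with 6 lower and 0 higher at an unadjusted edgeR p under 0.05.

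**Figure D3:**
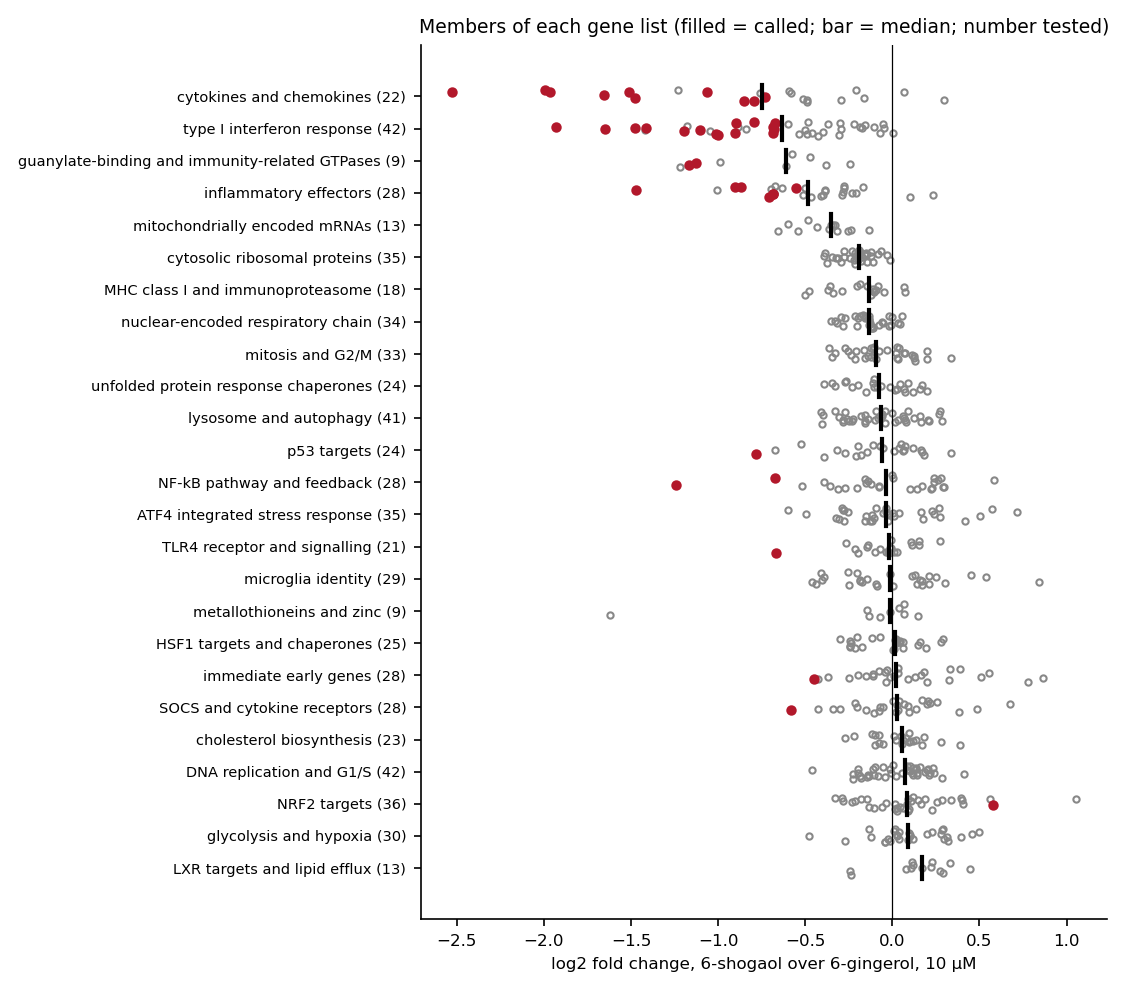
Log2 fold change of 6-shogaol over 6-gingerol at 10 µM for the members of each gene list, with the number tested; filled points are called and black bars are medians. Cytokines (-0.75), interferon-stimulated genes (-0.63) and effectors (-0.49) have low medians, as do the guanylate-binding and immunity-related GTPases (-0.61), and most other lists centre near 0.

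Promoter sequence was available for 50 of the 71 lower genes, 7 of the 10 higher genes and 9428 of all genes tested, as 250 bases before to 50 bases after the start (RefSeq, GRCm38.p6). For some genes that start lies far from the annotated 5' end of the gene. The distance was 3335 bases for the higher gene Ephx1, and as much as 92986 bases for a lower gene that counts among the antioxidant matches below. The interferon response element, searched as a pair of GAAA with NN between, on both strands, was in 12 of the 50 lower genes (24%), against 3.15% of all promoters. The NF-kB element, searched as GGGA or GGGG, then N, then TTTCC, was in 3 of the 50 (6%), against 0.859% of all. None of the 50 matched both patterns, and other forms of either element were not searched. The AP-1 element TGANTCA was in 22%, against 4.68% of all. The antioxidant element TGACNNNGC, which can overlap AP-1 matches, was in 20%, against 14.9% of all, and the heat shock element (GAA, TTC and GAA, each parted by NN) in none, against 0.371%. The 7 higher genes held no match to any of these. A match describes the letters in this window and no more. The 5 promoters below were picked after the matches were seen, to show both kinds of element beside the cytokines and interferon-stimulated genes above; capitals mark the matches. That of Il6 (chr5:30012864-30013163, plus strand) has an NF-kB match starting 44 bases before the start, and that of Cxcl2 (chr5:90903649-90903948, plus strand) 97 bases before. Interferon response elements begin 213 bases before the start in Cxcl10 (chr5:92348840-92349139, minus strand), at 78, 72 and 66 bases in Isg15 (chr4:156200769-156201068, minus strand), where they overlap, and at 104 and 85 bases in Ifit1 (chr19:34640639-34640938, plus strand), on the opposite strand.
Il6: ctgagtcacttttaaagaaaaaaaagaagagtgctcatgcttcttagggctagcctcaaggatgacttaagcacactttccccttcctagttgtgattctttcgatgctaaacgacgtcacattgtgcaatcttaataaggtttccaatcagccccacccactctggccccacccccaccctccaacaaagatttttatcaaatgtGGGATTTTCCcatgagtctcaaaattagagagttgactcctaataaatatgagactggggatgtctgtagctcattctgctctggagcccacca
Cxcl2: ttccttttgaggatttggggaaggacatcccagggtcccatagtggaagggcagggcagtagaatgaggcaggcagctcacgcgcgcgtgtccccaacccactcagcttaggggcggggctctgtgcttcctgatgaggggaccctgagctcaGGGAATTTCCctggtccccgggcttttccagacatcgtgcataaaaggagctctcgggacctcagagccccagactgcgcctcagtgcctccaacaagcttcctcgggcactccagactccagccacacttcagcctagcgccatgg
Cxcl10: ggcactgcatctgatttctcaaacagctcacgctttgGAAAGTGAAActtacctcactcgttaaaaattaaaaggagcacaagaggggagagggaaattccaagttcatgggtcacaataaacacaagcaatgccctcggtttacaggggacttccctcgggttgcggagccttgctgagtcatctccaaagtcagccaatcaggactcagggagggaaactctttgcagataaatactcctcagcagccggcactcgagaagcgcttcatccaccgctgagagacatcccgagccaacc
Isg15: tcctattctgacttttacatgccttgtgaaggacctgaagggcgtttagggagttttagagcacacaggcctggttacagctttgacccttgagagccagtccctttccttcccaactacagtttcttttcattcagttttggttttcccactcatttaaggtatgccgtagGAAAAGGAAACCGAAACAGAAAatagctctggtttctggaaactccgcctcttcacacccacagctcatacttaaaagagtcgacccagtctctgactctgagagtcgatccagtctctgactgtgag
Ifit1: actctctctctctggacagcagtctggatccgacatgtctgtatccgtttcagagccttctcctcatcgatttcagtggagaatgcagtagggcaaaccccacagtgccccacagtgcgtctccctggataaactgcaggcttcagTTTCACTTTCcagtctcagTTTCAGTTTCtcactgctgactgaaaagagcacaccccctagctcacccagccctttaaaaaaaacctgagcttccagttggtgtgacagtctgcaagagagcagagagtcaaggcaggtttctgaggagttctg

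Genes were then classed by LPS alone against untreated cells. Of the 71 lower genes, 55 (77.5%) were LPS-induced, meaning called higher with LPS by edgeR and raised by a log2 fold change of 1 or more (LPS alone moved 11.8% of genes, 7.66% higher and 4.16% lower). Seen from the other side, 55 of 370 LPS-induced genes (14.9%) were lower with 6-shogaol (16 to 56 with 1 library left out) and 0 were higher, against 0.131% lower among the 12256 genes that were neither induced nor repressed. The median log2 fold change of the induced class was -0.37, and 307 of 370 (83%) were negative. At an unadjusted p under 0.05, edgeR had 168 of them lower and 6 higher, and DESeq2 called 1 higher. The 79 LPS-repressed genes had a median of 0.27, with 1 called, higher.

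The median difference was larger for genes with a stronger LPS response. Among 225 genes that LPS raised by a log2 fold change of 1 to 2, the median was -0.24 and 7.56% were lower with 6-shogaol. Among 102 raised by 2 to 4 the median was -0.61 with 21.6% lower, and among 43 raised by more the median was -0.99 with 37.2% lower. Within these classes single genes varied. The difference in Il6 equalled 54.2% of its log2 rise with LPS and that in Isg15 34.4%, but that in Cfb only 14.9%, although Cfb had a log2 rise of 9.91. The induced class was not uniform either: 101 of its 370 genes had an interval within 1.5-fold, a smaller share than the 65.1% of all genes tested. Of these 101, 93 were among the 225 genes raised least by LPS, 7 among the 102 raised by 2 to 4, and 1 among the 43 raised by more. Nfkbia and Tnfaip3, described above, were among the 101.

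**Figure D4:**
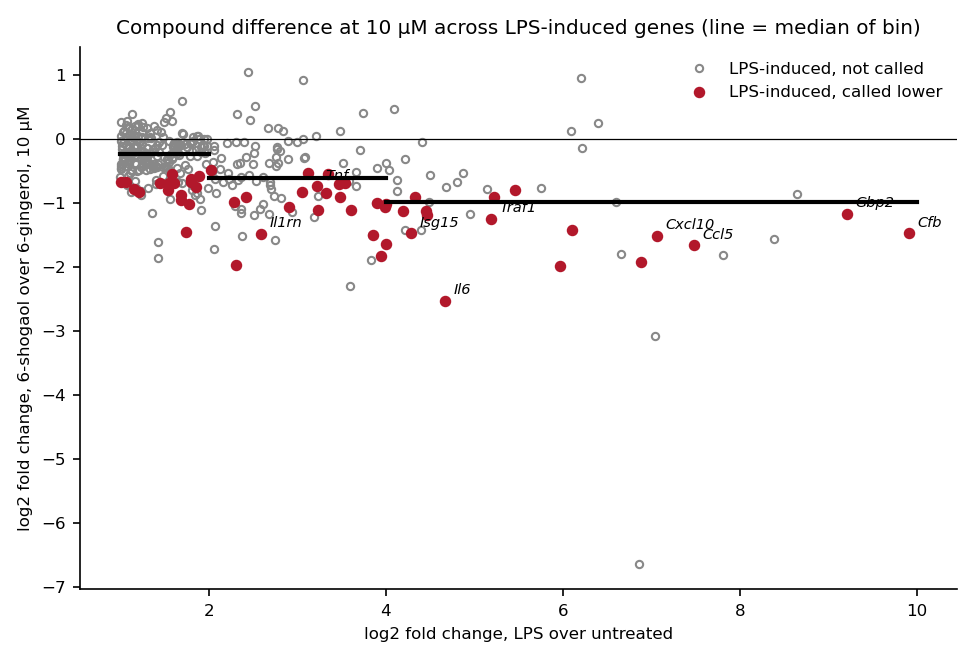
Log2 fold change of 6-shogaol over 6-gingerol at 10 µM against log2 fold change of LPS over untreated, for the 370 LPS-induced genes. Filled points are the 55 genes called lower; black lines are medians for LPS changes of 1 to 2 (-0.24), 2 to 4 (-0.61) and over 4 (-0.99).

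Genes higher with 6-shogaol were few and their differences small. Tspoap1, a scaffold that binds the mitochondrial protein TSPO (ENSMUSG00000034156, chr11:87760541-87785928), was at 18.7 and 20.9 CPM with 6-shogaol, against 7.67 and 12.0 CPM with 6-gingerol (log2 1.01, SE 0.18, edgeR adjusted p = 0.0129). Ephx1, the microsomal epoxide hydrolase (ENSMUSG00000038776, chr1:180976210-181020904), was at 75.7 and 68.8 CPM with 6-shogaol and 49.5 and 47.4 CPM with 6-gingerol (log2 0.58, SE 0.11, edgeR adjusted p = 0.0298). Arrb1, which encodes β-arrestin 1, was at 91.7 and 102 CPM with 6-shogaol and 59.5 and 64.6 CPM with 6-gingerol (log2 0.64, SE 0.13). The libraries did not overlap for any of these. The remaining 7 were Them6 (log2 0.83), Ajm1 (0.80), Efr3b (0.70), Pim2, a serine/threonine kinase (0.64), Dnajb14, a co-chaperone (0.64), Eepd1 (0.61) and Rasgrp3, a Ras activator (0.55). LPS alone lowered 5 of the 10. No higher gene kept its call in all 4 fits that leave out 1 of the compared libraries. Only Tspoap1, Rasgrp3 and Ajm1 kept it in any of these fits, and all 10 kept their direction.

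Ephx1 was the 1 called member of 36 NRF2 targets (median 0.09, 0.20 with library totals), and 28 of them had intervals within 1.5-fold. At an unadjusted p under 0.05, edgeR had 8 higher and 3 lower, against 14.6% of all genes tested in both directions together. DESeq2 called 2 higher and 0 lower. Hmox1, heme oxygenase 1, was at 524 and 527 CPM with 6-shogaol and 518 and 501 CPM with 6-gingerol, an interval from -0.18 to 0.28. Gclm, the modifier subunit of glutathione synthesis, had an interval from -0.12 to 0.29, Srxn1, sulfiredoxin, from -0.18 to 0.21, and Txnrd1, thioredoxin reductase 1, from -0.07 to 0.36. All 4 intervals exclude a 1.5-fold difference. The cystine transporter Slc7a11 was at 90.2 and 78.8 CPM with 6-shogaol and 61.2 and 66.2 CPM with 6-gingerol, without overlap, but did not pass the test (log2 0.41, edgeR adjusted p = 0.151). Nqo1 was too low to judge, with an interval from -1.21 to 0.92.

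Other stress and growth programs had few calls or none at this dose. None of 25 heat shock genes was called by edgeR or DESeq2 (2 lower and 1 higher at an unadjusted edgeR p under 0.05), 22 had intervals within 1.5-fold, and Hspa8, the constitutive HSP70, was at 877 and 873 CPM with 6-shogaol and 717 and 714 CPM with 6-gingerol (log2 0.29, edgeR adjusted p = 0.259). None of 35 ATF4 targets (median -0.04, 0.08 with library totals), 24 unfolded protein response chaperones, 23 cholesterol synthesis genes or 42 DNA replication genes was called, and 39 of the 42 replication genes had intervals within 1.5-fold. In these 4 lists edgeR had 7, 4, 0 and 1 lower and 4, 0, 2 and 2 higher at an unadjusted p under 0.05, in that order, and DESeq2 called 2, 1, 1 and 1. Among 24 p53 targets edgeR had 5 lower and 1 higher at an unadjusted p under 0.05, and DESeq2 called 3 lower and 0 higher. Mdm2, the p53 ubiquitin ligase, was the 1 called by edgeR. It was at 90.7 and 91.6 CPM with 6-shogaol and 150 and 163 CPM with 6-gingerol (log2 -0.78, edgeR adjusted p = 0.00236). Jak2, a cytokine receptor kinase, was lower too (log2 -0.58, edgeR adjusted p = 0.00357). None of 29 microglia identity genes was called by edgeR or DESeq2 (2 lower and 3 higher at an unadjusted edgeR p under 0.05). Over all genes tested, 14.6% had an unadjusted edgeR p under 0.05.

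Transcripts of the mitochondrial genome and of ribosomes separated the groups in sum, without a call by edgeR for any mRNA (5 and 6 lower at an unadjusted p under 0.05, 2 and 1 by DESeq2). The 13 mitochondrial mRNAs summed to 47429 and 47181 CPM with 6-shogaol and 68988 and 60335 CPM with 6-gingerol, against 44933 to 63200 CPM in the other 8 libraries (list median -0.35, -0.24 with library totals). The 35 ribosomal protein mRNAs summed to 48342 and 46122 CPM with 6-shogaol and 56851 and 51784 CPM with 6-gingerol (median -0.19, -0.08 with library totals). With fragment length as a covariate 98 genes were called. The part of these sums in the other results was not tested.

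At 30 µM the same pair of compounds differed in far more genes, 3171 (25% of genes tested, 1579 lower and 1592 higher with 6-shogaol). The fold changes at the 2 doses share no library, although all libraries share the estimate of spread. Of the 71 genes lower at 10 µM, 65 were lower at 30 µM and 0 were higher, and 9 of the 10 higher genes were higher at 30 µM, all but Ajm1. The lower genes had a median log2 fold change of -1.51 at 30 µM. Il6 was at 2.93 and 4.11 CPM with 30 µM 6-shogaol and 101 and 118 CPM with 30 µM 6-gingerol, a log2 fold change of -4.95.

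Whether the compound difference changed with dose was tested for each gene as the 30 µM fold change minus that at 10 µM, and 8.17% of genes were called (4.27% higher and 3.9% lower). The gap was larger at 30 µM for 35 of the 71 lower genes, not called for 34, and shifted the other way for Gm3650 and mt-Rnr1. It was larger for 7 of the 10 lower cytokines, 5 of the 7 lower effectors, and 6 of the 15 lower interferon-stimulated genes. The 71 genes were chosen by a negative 10 µM fold change, which the dose difference subtracts. That choice tends to shift the difference upward, and how far it sets these counts was not tested. Cfb, at 7.63 and 7.32 CPM with 30 µM 6-shogaol and 226 and 218 CPM with 30 µM 6-gingerol, had a difference of -3.42 on the log2 scale (edgeR adjusted p = 2.27e-09). Cxcl2 had -2.66 (edgeR adjusted p = 2.28e-06) and Tnf -1.00 (0.000321). For other genes a change with dose was not detected: Cxcl10 had -0.38 (edgeR adjusted p = 0.151), Oasl1 -0.24 (0.33) and Ifit1 0.19 (0.667). Ifit1 was at 5.31 and 7.83 CPM with 30 µM 6-shogaol and 12.3 and 14.2 CPM with 30 µM 6-gingerol, ranges that meet those at 10 µM for both compounds.

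**Figure D5:**
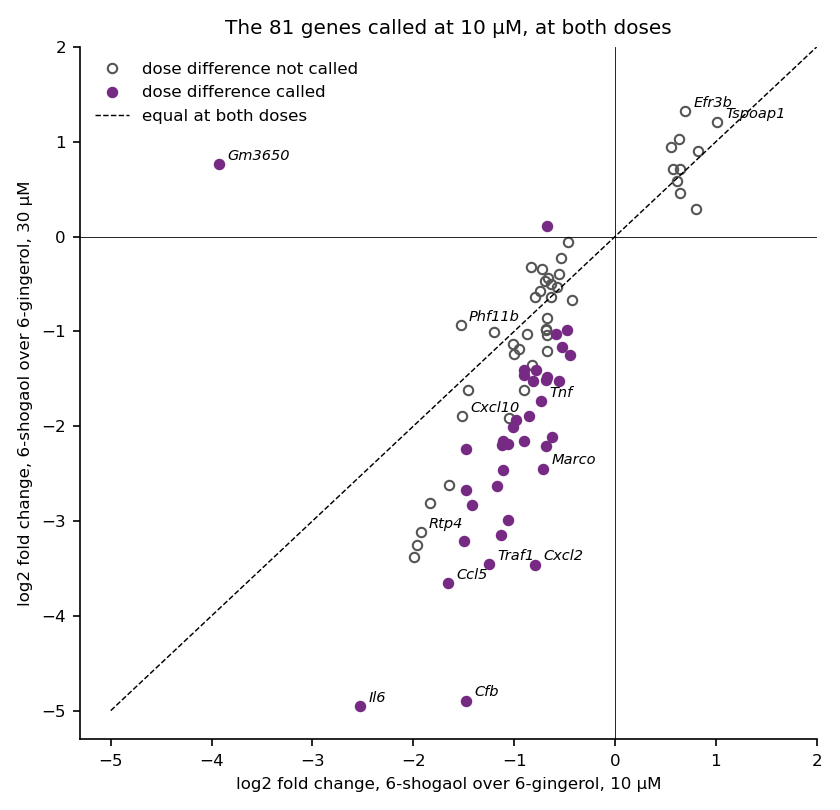
Log2 fold change of 6-shogaol over 6-gingerol at 30 µM against that at 10 µM for the 81 genes called at 10 µM; filled points are genes whose compound difference changed with dose, and the dashed line marks equal values. Il6 (-2.53, -4.95) and Cfb (-1.47, -4.89) lie far below the line and Cxcl10 (-1.51, -1.89) near it.

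Many genes that separated the compounds at 30 µM had a bounded difference at 10 µM. Of the 1592 genes higher at 30 µM, 1305 (82.0%) had a 10 µM interval within 1.5-fold, against 65.1% of all genes tested. Of the 1579 lower ones 1031 had such an interval (65.3%), a share near that of all genes. A call at 30 µM favours genes with narrow intervals, and both doses share the estimate of spread. How far that selection sets these shares was not tested. The DNA replication list held 40 of 42 genes higher at 30 µM and 33 whose difference changed with dose. Mcm4, a subunit of the replicative helicase, was at 76.4 and 76.0 CPM with 10 µM 6-shogaol and 77.4 and 86.2 CPM with 10 µM 6-gingerol. At the higher dose it was at 219 and 242 CPM with 6-shogaol and 80.3 and 83.4 CPM with 6-gingerol. S100a4, a calcium-binding protein, behaved alike, at 73.5 and 64.5 CPM with 10 µM 6-shogaol and 68.5 and 69.8 CPM with 10 µM 6-gingerol, groups that overlap. Gclm and Hspa8 were also called for the change with dose, by 1.11 (edgeR adjusted p = 0.000246) and 1.44 (0.000103).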

How the data were processed

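RNA was sequenced in 12 BV2 libraries (TRIzol, stranded TruSeq mRNA, NovaSeq X paired-end, per the labels' protocols). Tools in the submitters' processing notes, with no role or order, are STAR 2.7.11b, RSEM 1.3.3, DESeq2 1.44.0, R 4.4.2, Trimmomatic 0.39 and FastQC 0.12.1, with build GRCm38. The deposited per-library tables hold, per the file headers, RSEM expected counts, of which 19.4% of nonzero values are not whole. TPM values and gene lengths are also in these deposited tables, per the file headers; TPM was not used, and the lengths served only for fragment length. A table of normalized signal deposited by the authors (18013 genes, 88.7% shared, normalization not stated) was an alternative only. Of 43432 gene identifiers, 98.0% matched a GENCODE M21 symbol.

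Expected counts were rounded, filtered with filterByExpr and scaled by TMM in edgeR 4.0.16 (R 4.3.3). All 12 libraries were fitted with 6 group means (6 residual degrees of freedom, biological coefficient of variation 9.45%), since 2 libraries per group estimate spread poorly. The 2-sided quasi-likelihood F test was adjusted by Benjamini-Hochberg over 12705 genes, and every adjusted p in the text is from edgeR unless another tool is named. Totals over all libraries ran from 16534960 to 21179867. Replicates differed beyond sampling noise (chi-square per degree of freedom 6.29 with 10 µM 6-shogaol and 16.4 with 10 µM 6-gingerol), so none was merged.

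Genes were named by rule: of called genes at 5 CPM or more without overlap, the 15 lowest and 15 highest fold changes; 36 listed genes; the called member of lowest p in each direction per list, or the 2 of lowest p where none was called; and 5 per direction for the change with dose. Ccl4, Ccl7, Lta, Cd40, Oasl2, Dcbld2, Gm13571, mt-Rnr1 and Gm3650 were named after their values were seen. Members and lists were chosen with earlier results of these data known. Alternatives were other scalings, filters, tools, covariates and sample sets, a replicate block, and leaving out each library. A limma 3.58.1 fit of log2(signal + 1) served the authors' table, and DESeq2 1.42.0 was a count alternative.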

Additional observations from a re-analysis of the deposited data

Results flagged for a closer look

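The compound difference at 30 µM minus that at 10 µM, both as log2 6-shogaol over 6-gingerol, was called (edgeR adjusted p under 0.05) for 47 named genes. Among cytokines and chemokines it was -2.42 for Il6, -2.00 for Ccl5, -1.93 for Ccl2, -2.66 for Cxcl2, -1.00 for Tnf, -1.04 for Ccl4 and -1.19 for Il1rn, so the deficit with 6-shogaol was larger at the higher dose. Csf3, which was low and imprecise at 10 µM, had -3.42.

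Among effectors it was -3.42 for Cfb, -1.74 for Marco, -1.52 for Ptgs2, -1.77 for Nos2 and -1.51 for Saa3, and it was -1.72 for Wfdc21, a secreted protein gene. Nos2 and Saa3 had no call at 10 µM and were lower with 6-shogaol at 30 µM.

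Among interferon-stimulated genes and GTPases it was -0.99 for Oasl2, -0.77 for Isg15, -0.51 for Rsad2, -1.35 for Irf7, -1.42 for Zbp1, -1.46 for Gbp2 and -1.07 for Gbp3. Signalling genes had -2.21 (Traf1), -0.44 (Jak2), -0.62 (Mdm2), -0.81 (Cd40) and -0.80 (Klf6, a zinc finger factor).

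Stress genes of the integrated stress response were nearer between compounds at 10 µM and lower with 6-shogaol at 30 µM: -1.32 for Ddit3, -1.00 for Atf3 and -2.37 for Ppp1r15a. The small nucleolar RNA host Snhg12 had -2.45. In the other direction, the value was 1.44 for Hspa8, 1.11 for Gclm, 1.90 for S100a4, 2.13 for S100a11, 1.59 for Mcm4, 1.48 for Mcm6 and 1.54 for Rrm1, a subunit of ribonucleotide reductase. The value was 0.85 for Insig1, a regulator of sterol synthesis, 1.03 for Tk1, thymidine kinase 1, 0.70 for the zinc transporter Slc39a10 and 0.90 for mt-Co1, a cytochrome oxidase subunit, none of them called at 10 µM. It was -0.67 for the oxygen sensor Egln3 and -2.51 for the collagen gene Col1a1, which was under 1 CPM in all 4 libraries at 10 µM. Genes named elsewhere in the text had 4.69 (the pseudogene Gm3650, near 0 CPM), 0.79 (mt-Rnr1), -1.05 (Gm13571) and -0.56 (Dcbld2).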

How the results depend on the processing

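The 81 calls at 10 µM became 173 with DESeq2 (80 shared), 170 with the compared groups alone (79 shared), 257 without the untreated libraries (80 shared), 419 with no filter on low counts (81 shared) and 42 with limma on the authors' table (35 shared). Leaving out 1 compared library gave 16 to 49 calls: 23 and 16 without replicate 1 and 2 of 6-shogaol, 31 and 49 without replicate 1 and 2 of 6-gingerol. Of the 14 lower genes called in each of these 4 fits, 13 were also called under all 10 other alternatives. No called gene changed sign under any alternative run. No label says whether replicate numbers pair the samples. Same-numbered deviations from the group means correlated at 0.147 between the 10 µM groups, and at -0.31 to 0.18 over all pairs of groups. With 2 libraries per group this cannot settle the pairing. A replicate block gave 81 calls in the 12-library fit, of which 74 were shared. With the 4 libraries alone, a fit chosen after seeing the data, the block gave 1020 calls (485 higher and 535 lower).

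LPS-induced genes numbered 305 to 363 when 1 LPS or untreated library was left out. Of LPS-induced genes, 55 were lower; this was 121 in the 4-library block fit, 30 on the authors' table, 104 with no filter, and 16 to 56 over fits without 1 library. The count higher, 0, was 1 with DESeq2, 1 with library totals, 1 with the compared groups alone, 1 without untreated libraries, 5 in the 4-library block fit, 6 with no filter, and 0 in each fit without 1 library. The 3171 calls at 30 µM were 1819 to 2169 without 1 library. The 1038 calls for the change with dose were 471 on the authors' table, 1730 without untreated libraries, and 299 to 839 without 1 library. The causes were not tested. Depth limits genes under about 1 CPM, such as Il1b and Nqo1.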

Other observations

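Of the 71 genes lower with 10 µM 6-shogaol, 16 were not LPS-induced, and 11 of these were lower at 30 µM too. LPS alone raised 6 of the 16, by less than the log2 fold change of 1 that defines the induced class. Anxa5, a calcium-dependent phospholipid-binding protein, was at 319.9 and 360.3 CPM with 6-shogaol and 546.8 and 512.3 CPM with 6-gingerol (log2 -0.64, SE 0.13, edgeR adjusted p = 0.043). Tes, a focal adhesion protein, was at 61.5 and 63.1 CPM with 6-shogaol and 101.1 and 92.9 CPM with 6-gingerol (log2 -0.64, edgeR adjusted p = 0.010). Cav2, a caveolin, was at 58.0 and 59.7 CPM with 6-shogaol and 89.1 and 82.0 CPM with 6-gingerol (log2 -0.54), and Mpeg1, the macrophage pore-forming protein perforin-2, at 297.8 and 303.6 CPM with 6-shogaol and 409.0 and 400.1 CPM with 6-gingerol (log2 -0.43). Of these 4, Anxa5, Tes and Mpeg1 were among the 6 (log2 fold change with LPS 0.77, 0.46 and 0.58). The libraries did not overlap for any of these genes, which were named after their values were seen.

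The mitochondrial ribosomal RNA mt-Rnr1 was called lower at 10 µM, at 1770 and 1467 CPM with 6-shogaol and 2665 and 2502 CPM with 6-gingerol (log2 -0.68, edgeR adjusted p = 0.020), and had a log2 fold change of 0.11 at 30 µM (edgeR adjusted p = 0.565). Tmem119, a homeostatic microglia marker, was at 5.75 and 5.27 CPM with 6-shogaol and 3.45 and 2.68 CPM with 6-gingerol, without a call (log2 0.84, edgeR adjusted p = 0.127). Of other cell types, the endothelial receptor Kdr was at 158 and 164 CPM with 6-shogaol and 124 and 128 CPM with 6-gingerol, without a call (log2 0.36, edgeR adjusted p = 0.117). Lists without a call in either direction also included 13 LXR targets (median 0.17), 30 glycolysis and hypoxia genes (0.09), 41 lysosome and autophagy genes (-0.07, 0.05 with library totals) and 33 mitosis genes (-0.09, 0.02 with library totals). At an unadjusted p under 0.05, edgeR had 0, 1, 10 and 6 of these lower and 5, 7, 1 and 1 higher, and DESeq2 called 1, 1, 1 and 0. Summed oligodendrocyte markers were at 18.1 and 16.2 CPM with 6-shogaol and 19.4 and 13.2 CPM with 6-gingerol.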
